A study of Mus musculus with 2 samples.

Results

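The 38 genes described here are Hox genes of the 4 mouse clusters, Hoxa (10 genes), Hoxb (10), Hoxc (9) and Hoxd (9), out of 21938 protein-coding genes. They were chosen by gene name, and all 38 were found in the annotation (GENCODE M21, mouse build mm10). The data are DNase-seq of the gastrocnemius, the large calf muscle of the hindlimb, from female F1 hybrid mice of strain B6CASTF1/J aged 2 months. In DNase-seq the nuclease DNase I cuts DNA that is not packed tightly, and places with many cuts are called as peaks. There was 1 group with 2 libraries, replicates 1 and 2, with no treatment and no other genotype, so everything below is a description of these libraries and no test between groups was possible. The labels give the libraries separate biosamples but the same donor identifier, so separate animals are not settled. The tissue was taken whole, so a peak present in fewer cells and a peak less open in each cell cannot be told apart.

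Hox genes encode homeodomain transcription factors that tell a cell where it lies along the head-to-tail axis and, in the limb, between shoulder or hip and the digits. Genes of a cluster lie in a row, and low-numbered genes are used nearer the head and earlier, high-numbered genes nearer the tail and later. Genes with the same number in different clusters are paralogues that arose when an ancestral cluster was duplicated. Silent stretches of a cluster are kept compact by Polycomb proteins, and cells of adult limbs, fibroblasts and muscle cells among them, are known to keep a Hox pattern from the embryo. DNase peaks show accessible DNA and do not measure expression.

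The libraries differed greatly in the number of peaks. Replicate 1 had 66984 peaks and replicate 2 had 258342, 3.86 times as many, and the sequencing depth is unknown. Peaks of both libraries that overlapped by at least 1 bp were merged into 49160 shared peaks, 0.186 per 10 kb of genome. Each peak carries the authors' signal value, whose scale is not stated. A signal is therefore read only within its own library, by the share of that library's peaks that were stronger. All 11 muscle fibre markers, Acta1, Ckm and Myod1 among them, had a promoter peak in both libraries, as did 5 of 5 fibroblast, 4 of 5 endothelial, 4 of 5 mural, 3 of 4 tenocyte, 2 of 4 Schwann and 1 of 3 satellite cell markers. Macrophage (0 of 4), adipocyte (0 of 3) and hepatocyte (0 of 3) markers had none in both, while 2 of 3 neuron markers (Syn1 and Snap25) and 1 of 3 heart markers (Gata4) did. Replicate 2 alone had promoter peaks at 3 of the macrophage, 1 of the adipocyte and 1 of the hepatocyte markers. Of all 53 markers, 33 were called in both libraries and 43 in replicate 2. For all protein-coding genes the shares were 60.2% and 71.1%. Counts from the short lists therefore do not settle which cells were present. Which cells carried the Hox peaks was not tested.

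The 4 clusters looked unlike one another. Hoxa was open over most of the DNA from Hoxa5 to Hoxa11. Hoxc and Hoxd held a few strong sites, and Hoxb had no peak shared by the libraries. A promoter counts as accessible here if a peak of replicate 1 and a peak of replicate 2 overlap the DNA within 1 kb of any annotated start of the gene. By this rule 20 of the 38 Hox promoters (52.6%) were accessible, against 60.2% of all protein-coding genes. Replicate 1 had a promoter peak at 23 Hox genes (60.8% of all genes) and replicate 2 at 29 (71.1% of all genes). There were 3 genes with a promoter peak in replicate 1 only, 9 in replicate 2 only and 6 in neither. Of the 20 accessible promoters, 8 were in Hoxa, 0 in Hoxb, 6 in Hoxc and 6 in Hoxd.

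Many Hox promoters are rich in CpG dinucleotides, a class of promoter that is open in most tissues. The CpG frequency was read in the 1 kb around the 5 prime end of the gene record, while accessibility was called at any annotated start. A gene can thus be classed at 1 start and called at another, as Hoxc4 was. At 24 of the 38 genes this frequency was at least 0.6 of that expected from base composition. Of these 24, 14 (58.3%) were accessible in both libraries. Of all 10076 genes with such promoters 91.8% were accessible. Among the 14 Hox genes with fewer CpGs 6 (42.9%) were accessible. Over all 21938 genes 13205 were accessible, 9254 of them with CpG-rich promoters, so the share among the rest was below 60.2%. Hox genes with fewer CpGs are therefore not shown to fall short of their class. The CpG-rich Hox promoters were split by cluster, with 6 of 8 accessible in Hoxa, 0 of 4 in Hoxb, 2 of 5 in Hoxc and 6 of 7 in Hoxd.

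**Figure D1:**
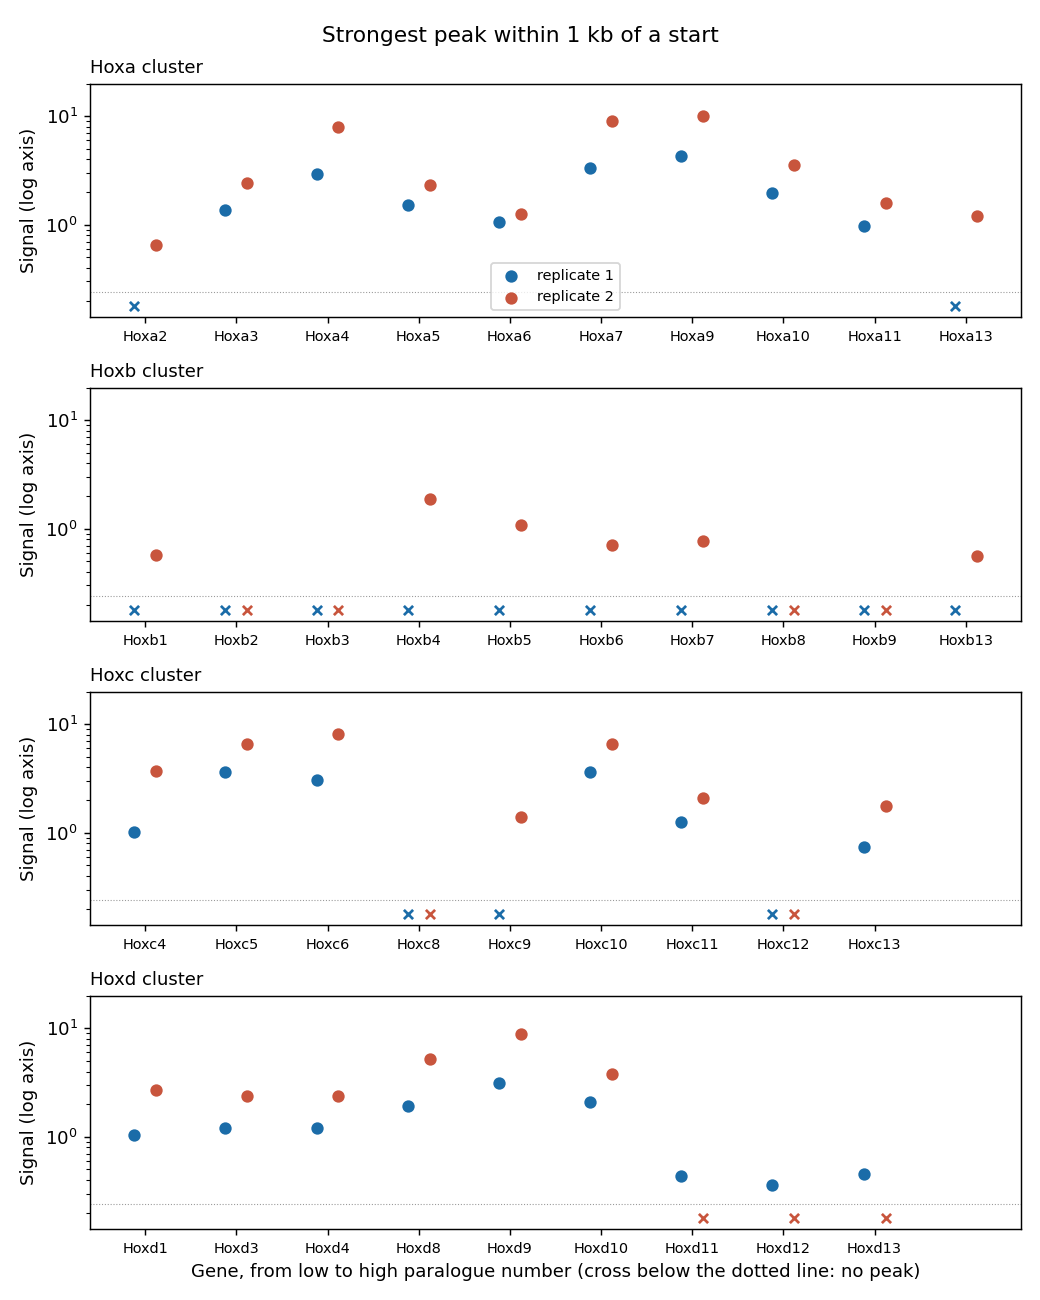
Signal of the strongest peak within 1 kb of any annotated start of each of the 38 Hox genes (log axis, deposited value without stated scale), in replicate 1 (blue) and replicate 2 (red), and a cross where the library had no peak. Hoxa3 to Hoxa11 have a dot in both libraries, no Hoxb gene has one in replicate 1, and Hoxd11 to Hoxd13 have one in replicate 1 only.

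Hoxa was the most accessible cluster. From 20 kb below Hoxa2 to 20 kb above Hoxa13 (chromosome 6, 52142417 to 52280880, genes on the minus strand) replicate 1 had 103 peaks and replicate 2 had 143, merging to 75 shared peaks. That is 5.42 shared peaks per 10 kb, 29.2 times the genome's density. The count depends on how many peaks are used: with equal numbers of the strongest peaks from each library it was 33, 15.2 times the genome's density on the same peaks, and with the strongest 33492 of each it was 18, or 13.2 times. With 50% reciprocal overlap it was 48, or 24.1 times, and with the authors' shorter peak list of each library 62, or 40.3 times. Hoxc and Hoxd, at 4.15 and 3.94 times on the main lists, were at 5.86 and 6.67 times with the strongest 33492. The lead of Hoxa was thus smaller among strong peaks. Counted within each library, peaks in Hoxa were 29.4 times as dense as in the genome in replicate 1 and 10.6 times in replicate 2. Short segments with a deposited p-value of at most 0.05, a column taken here to be the false discovery rate of DNase I cutting, covered 32.1% of the span in replicate 1 and 40.2% in replicate 2, against 0.835% and 2.69% of the genome. In both libraries the cluster thus held far more open DNA than an average stretch of the genome of equal length.

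The open stretch of Hoxa had a sharp edge at its high-numbered end. Between the starts of Hoxa10 and Hoxa11 segments covered 80.8% of the DNA in replicate 1 and 71.1% in replicate 2. Between Hoxa11 and Hoxa13 they covered 16.4% and 16.9%, and beyond Hoxa13 they covered 0% and 2.16%. The last shared peak (52246101 to 52246840) lay at the start of Hoxa11, and the 34.4 kb from there to the end of the span, with Hoxa13 inside, had none. Here both libraries changed at the same place, and the drop stood in the share of bases as well as in the count of peaks.

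The low-numbered end was graded and differed between libraries. From Hoxa5 to Hoxa11, interval by interval, segments covered 77.8% to 86.1% of replicate 1 and 68.1% to 88.4% of replicate 2. Between Hoxa4 and Hoxa5 they covered 41.5% and 49.6%. Between Hoxa3 and Hoxa4 the libraries parted, at 8.96% in replicate 1 and 57.3% in replicate 2, and likewise between Hoxa2 and Hoxa3, at 7.26% and 42.9%. So the edge near Hoxa5 stands in replicate 1, while replicate 2 was open to a lesser degree as far as Hoxa2. The low flank of the span held 2 shared peaks and the high flank 0. The stronger of the 2 (52158281 to 52158500), below Hoxa2, had signals of 2.46 in replicate 1 and 7.56 in replicate 2. In these libraries 12.1% and 1.93% of the peaks were stronger. Both signals exceeded those of the promoter peaks of Hoxa10, Hoxa5, Hoxa3 and Hoxa11. Between Hoxa2 and Hoxa3 a shared peak (52172541 to 52172840) had 1.56 and 3.75.

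**Figure D2:**
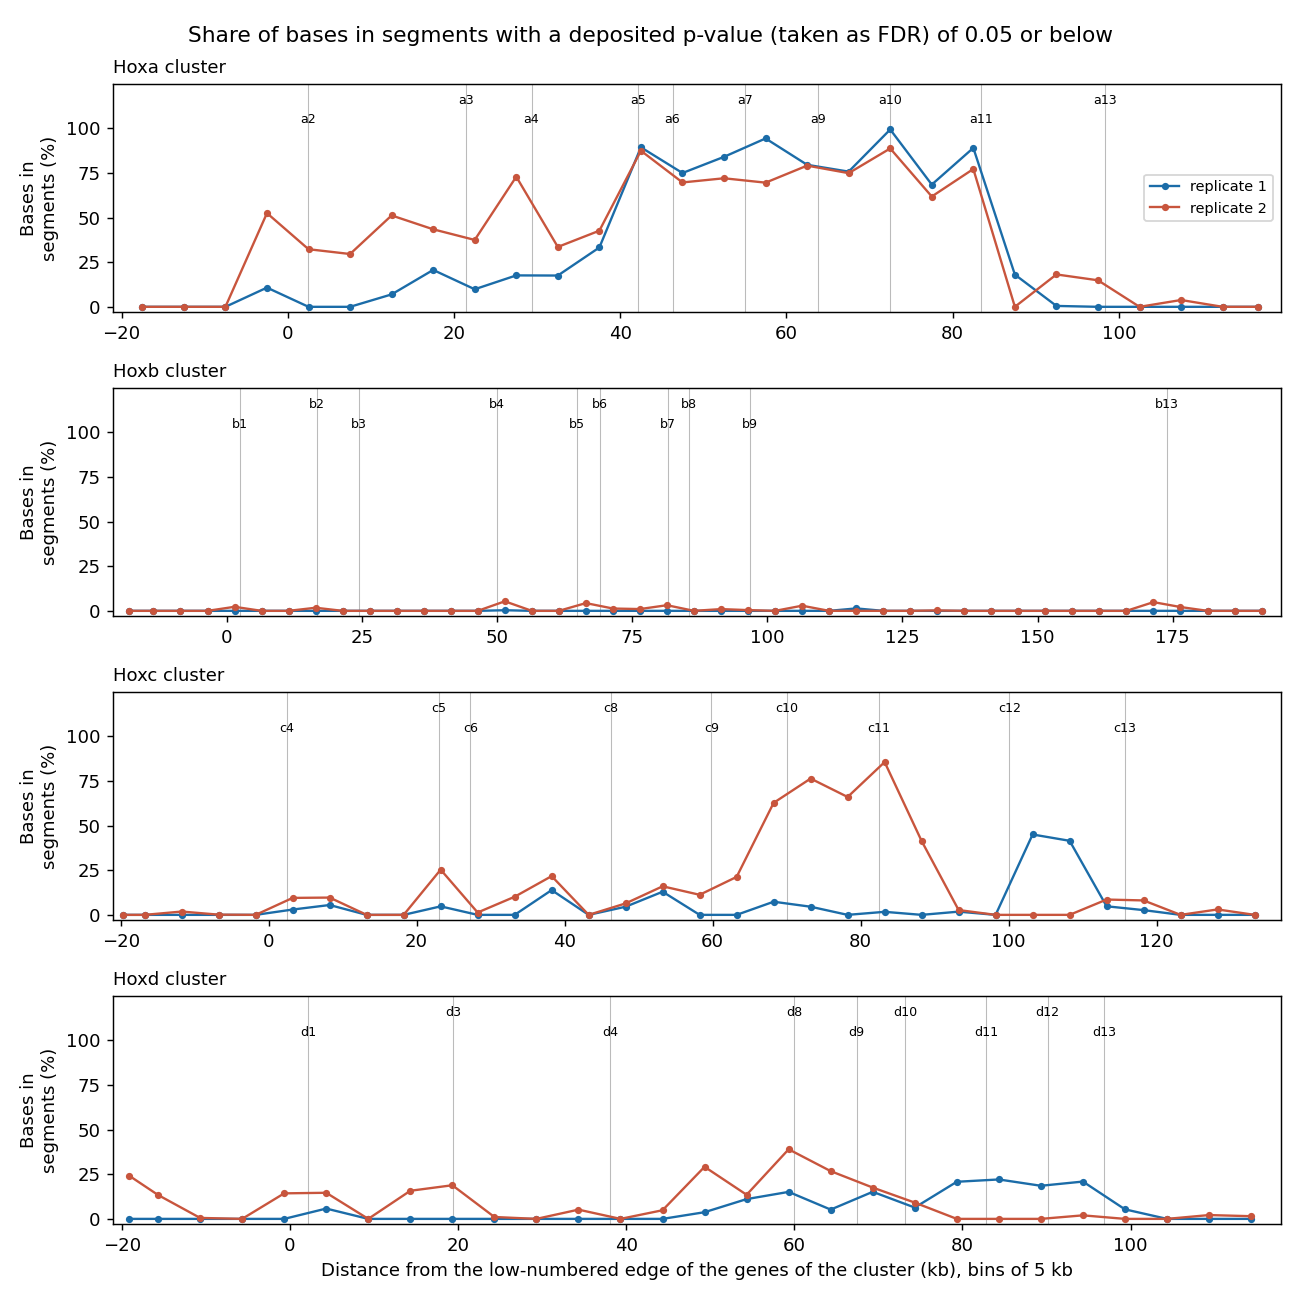
Share of bases in segments whose deposited p-value, taken as a false discovery rate, was at most 0.05, in bins of 5 kb along each cluster, against distance in kb from the low-numbered edge of the genes, for replicate 1 (blue) and replicate 2 (red); grey lines mark starts of the 38 genes. In Hoxa both lines run high from Hoxa5 to Hoxa11 and fall together after Hoxa11, while in Hoxc and Hoxd each library has a stretch that the other lacks.

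The strongest promoter peak of the 38 genes was at Hoxa9 in both libraries. Hoxa9, used in the rear of the body and in blood progenitors, had signals of 4.29 in replicate 1 and 10.04 in replicate 2, where 5.05% and 1.28% of the library's peaks were stronger. Hoxa7, a gene of the trunk, had 3.37 and 9.03. Hoxa4 had 2.92 and 8.04. These were the 3 shared peaks of the cluster with the best mean rank, and their midpoints lay 37, 66 and 213 bp from a start of the gene.

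Their neighbours were open at lower signals. Hoxa10, needed for the pelvis and the thigh, had 1.96 and 3.55. Hoxa5, a gene of lung and shoulder development, had 1.51 and 2.34, and Hoxa6 had 1.06 and 1.27. Hoxa11, which patterns the lower leg and forearm, had 0.978 and 1.59, with 36.8% and 11.2% of the library's peaks stronger. Hoxa3, a gene of thymus and parathyroid development, had 1.36 and 2.44, but this peak sits at distant annotated starts between Hoxa6 and Hoxa7, while the shared peak 142 bp from a start next to its coding sequence had 0.299 and 0.207.

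Both ends of the gene row lacked a promoter peak in replicate 1. Hoxa2, a hindbrain and face gene, had 2 promoter peaks, both in replicate 2, the stronger with a signal of 0.656. Hoxa13, which shapes hands and feet, had 3 in replicate 2, the strongest at 1.22. In replicate 2, 28.4% and 14.8% of the peaks were stronger than these, so neither was among the strong peaks of that library.

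**Figure D3:**
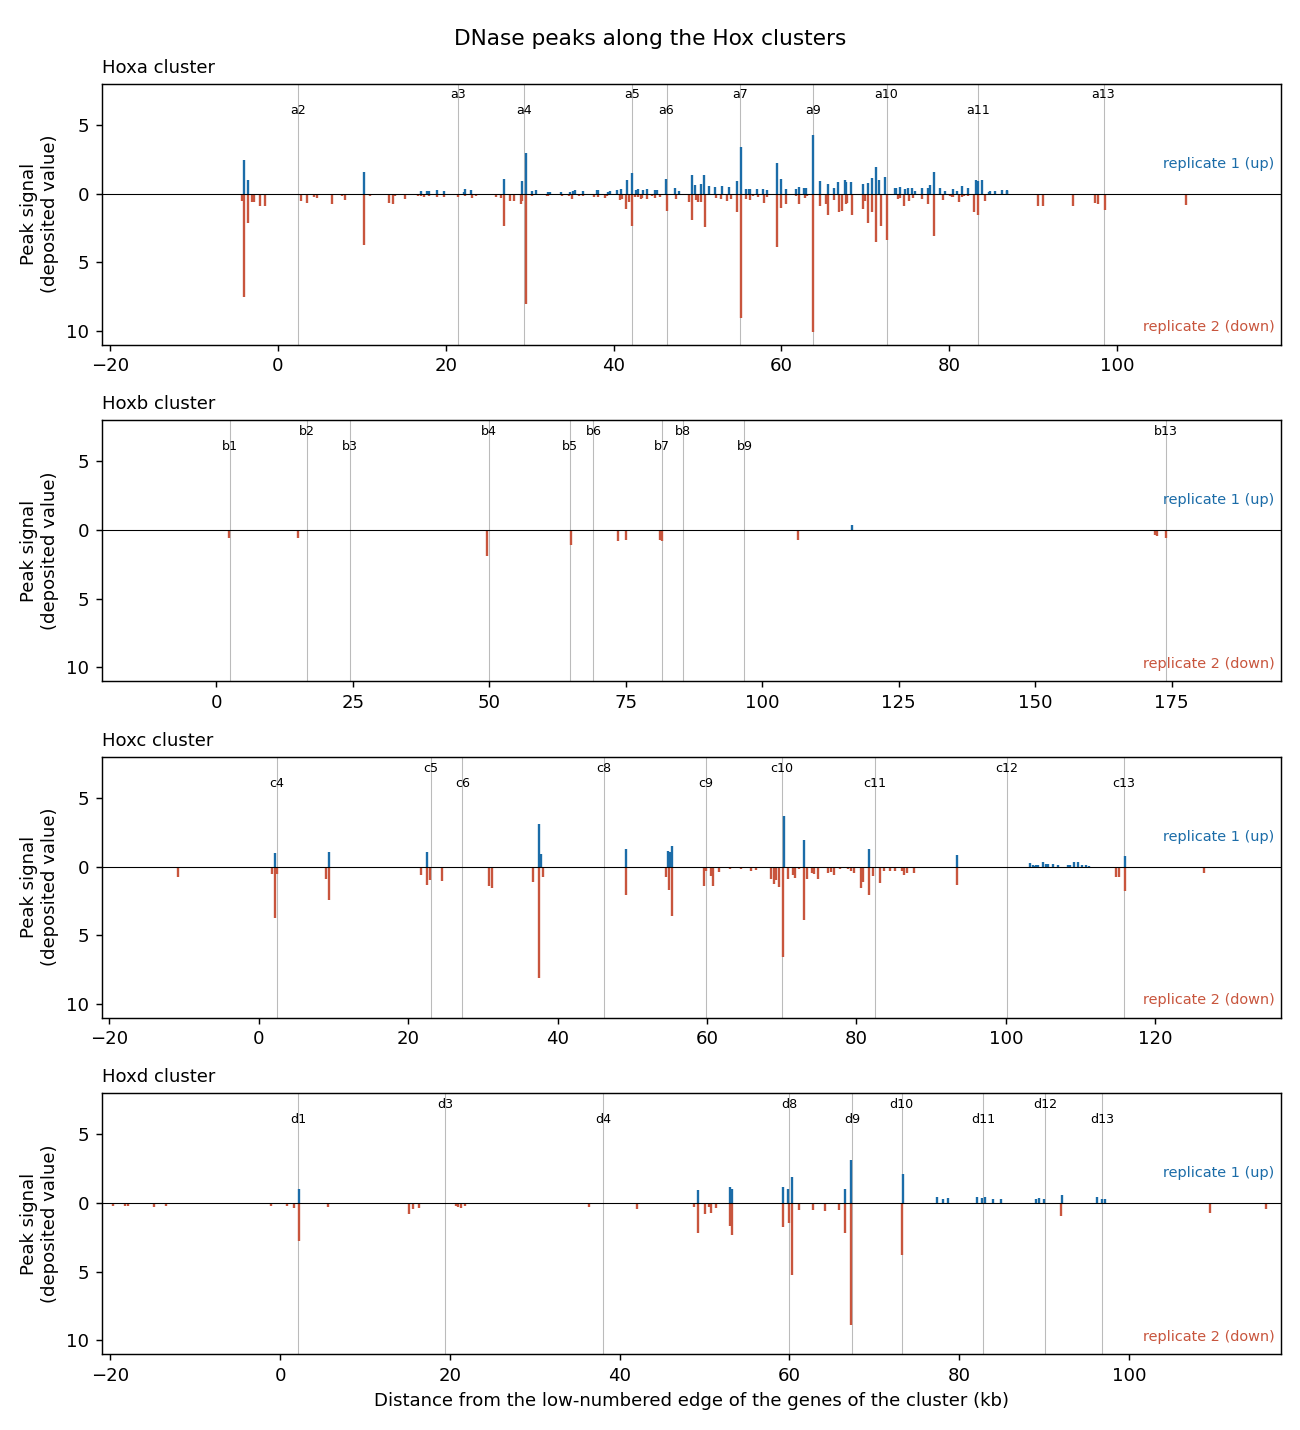
Peaks of replicate 1 (blue, upward) and replicate 2 (red, downward) along the Hoxa, Hoxb, Hoxc and Hoxd clusters, with bar height the deposited signal and the horizontal axis the distance in kb from the low-numbered edge of the genes; grey lines mark gene starts. Hoxa has the most bars, and Hoxb has 1 bar up and 12 down. Hoxc and Hoxd have isolated tall bars that stand in both libraries.

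Hoxb was nearly closed. Its span (chromosome 11, 96174316 to 96388256, genes on the plus strand) is the longest at 214 kb, and held 1 peak in replicate 1, 12 in replicate 2 and 0 shared peaks. Segments covered 0.0397% in replicate 1 and 0.717% in replicate 2, which is 0.0476 and 0.266 times their share of the genome. The single peak of replicate 1 (signal 0.363, with 80.9% of its peaks stronger) lay in the wide space between Hoxb9 and Hoxb13. Hoxb thus lay below the genome's average openness in each library, in peaks (0.185 and 0.575 times the genome's density) as well as in segments.

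In replicate 2 there were promoter peaks at 6 Hoxb genes. The strongest was at Hoxb4, a gene of trunk and blood stem cells, with a signal of 1.87 and 9.49% of that library's peaks stronger. Hoxb5 had 1.08, Hoxb7 0.773 and Hoxb6 0.706. Hoxb1, a hindbrain gene, had 0.577 and Hoxb13, a gene of tail and prostate, 0.560, with 33.3% of the peaks stronger. Hoxb2, Hoxb3, Hoxb8 and Hoxb9 had no promoter peak in either library. Of these 4, Hoxb8 and Hoxb9 have CpG-rich promoters (0.743 and 0.803 of the expected CpG frequency).

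Hoxc held a few strong sites shared by both libraries. In its span (chromosome 15, 102901103 to 103056852, plus strand) replicate 1 had 31 peaks and replicate 2 had 69, with 12 shared, 0.770 per 10 kb and 4.15 times the genome's density. The best ranked was at Hoxc10, a gene expressed in hindlimb but not forelimb, with signals of 3.66 and 6.56, so that 6.57% and 2.33% of the library's peaks were stronger. Next came a site in an intron of Hoxc6 (102999241 to 102999520) with 3.08 and 8.13. The third was an intergenic site 2913 bp from the start of Hoxc10, with 1.96 and 3.90. The strong sites of this cluster thus lay at and beside Hoxc10 and within Hoxc6.

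Promoter calls in Hoxc came in pieces. With the authors' shorter peak list of each library, 3 promoters were accessible, not 6. Hoxc4, Hoxc5 and Hoxc6 were accessible, Hoxc8 and Hoxc9 were not, Hoxc10 and Hoxc11 were, Hoxc12 was not and Hoxc13 was. Hoxc4 had 1.02 and 3.71, and Hoxc11, a hindlimb gene like Hoxc10, had 1.25 and 2.08. Hoxc13, a gene of hair and nails, had 0.738 and 1.75. Hoxc9, used in thoracic motor neurons, had a promoter peak in replicate 2 only (1.40), and Hoxc8 and Hoxc12 had none in either library. The values of Hoxc5 (3.66 and 6.56) are those of the Hoxc10 peak, because an annotated start of Hoxc5 lies next to Hoxc10, but Hoxc5 also had a peak in each library at the start near its coding sequence. Hoxc6 was called by an upstream start and had no peak in either library at the start near its coding sequence.

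The libraries differed along Hoxc in both directions. Between Hoxc10 and Hoxc11 replicate 2 had 21 peaks and segments over 76.7% of the DNA, and replicate 1 had 3 peaks and 5.45%. Between Hoxc9 and Hoxc10 replicate 2 had 14 peaks and replicate 1 had 0. Between Hoxc12 and Hoxc13 it was replicate 1 that had more, 17 peaks against 2, with segments over 29.2% and 2.74%. Those 17 peaks were weak, the strongest at 0.369, with 80.4% of the peaks of replicate 1 stronger. So each library had an open stretch of Hoxc that was nearly closed in the other.

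Hoxd was similar to Hoxc in density, and its strong sites stood at Hoxd8 to Hoxd10. The span (chromosome 2, 74648310 to 74785142, plus strand) had 25 peaks in replicate 1 and 40 in replicate 2, with 10 shared, 0.731 per 10 kb and 3.94 times the genome's density. Hoxd9, which with its paralogues patterns the limb nearest the body, had 3.17 and 8.86, with 8.36% and 1.55% of the peaks stronger. Hoxd10, a gene of hindlimb motor neurons and limb bones, had 2.08 and 3.77, and Hoxd8 had 1.92 and 5.20. At the low-numbered end Hoxd1 had 1.05 and 2.72. Hoxd3 and Hoxd4 had 1.20 and 2.35, the same peaks for both genes, since their first annotated starts lie 2 bp apart, and neither was accessible at the start near its coding sequence.

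The genes for the far end of the limb split the libraries. Hoxd11 had signals of 0.439, Hoxd12 of 0.357 and Hoxd13, the main digit gene, of 0.457 in replicate 1, and none of them had a promoter peak in replicate 2. These were weak sites, with 74.7%, 81.3% and 73.2% of the peaks of replicate 1 stronger. Segments between Hoxd11 and Hoxd12 covered 19.96% in replicate 1 and 0% in replicate 2, and between Hoxd12 and Hoxd13 they covered 15.9% and 1.48%. The longest stretch of the Hoxd span without a shared peak was the 47.0 kb from 74715966 to the peak at Hoxd1, past the coding starts of Hoxd4 and Hoxd3. The strong sites ended at Hoxd10 in both libraries. Beyond it replicate 1 had a weak open stretch as far as Hoxd13, and replicate 2 had little but the 1 shared site between Hoxd12 and Hoxd13 (0.609 and 0.908).

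When each peak was given to the gene with the nearest start among all protein-coding genes, so that no peak counts for more than 1 gene, the median Hox gene had 1 shared peak, the same as the median of all genes. The counts were spread unevenly, from 0 to 14. Hoxa10 had 14 shared peaks, Hoxa9 had 11, Hoxa4 and Hoxa7 had 10 each, Hoxa5 had 9, Hoxa3 had 7, Hoxa11 had 4 and Hoxa6 had 3. Over all protein-coding genes 4.05% had 10 or more. Hoxa2 and Hoxa13 had 0, with 9 and 7 peaks in replicate 2 alone.

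Outside Hoxa the counts were small. The 9 Hoxd genes had 10 shared peaks in all, 3 of them at Hoxd8. Hoxc4 had 8, of which 2 lay in the Hoxc span and 6 beyond its flank, and each other Hoxc gene had 1 or 2. The 2 of Hoxb1 lay beyond the 20 kb flank and not in the Hoxb span, and the other 9 Hoxb genes had 0. In single libraries the median Hox gene had 2 peaks in replicate 1 and 5.5 in replicate 2, against 1 and 5 for all genes.

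**Figure D4:**
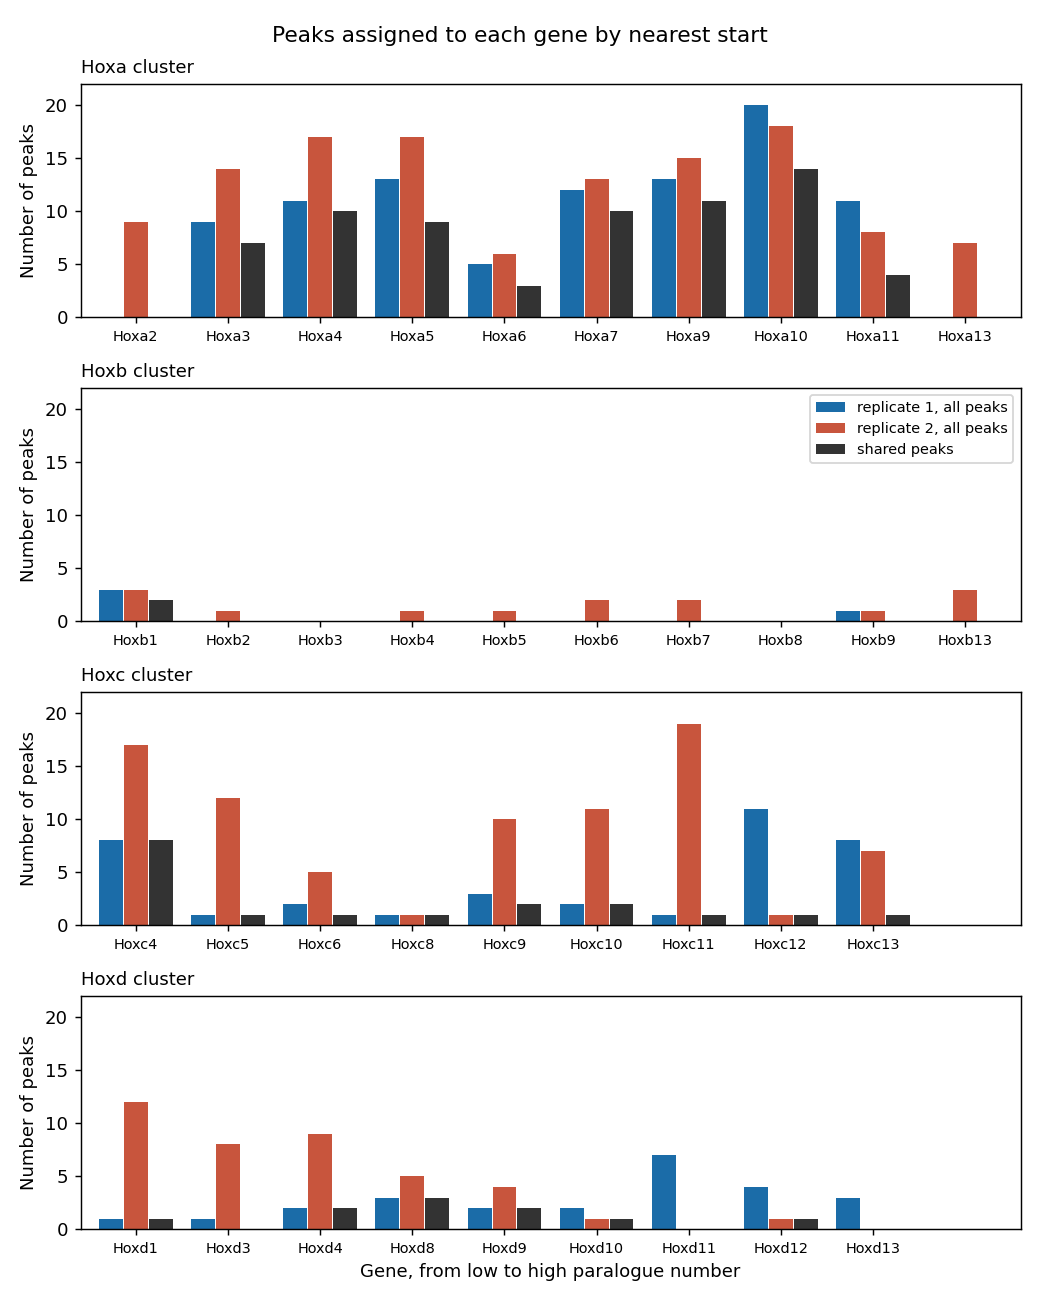
Number of peaks given to each of the 38 Hox genes by nearest start, for all peaks of replicate 1 (blue), all peaks of replicate 2 (red) and shared peaks (dark), with no peak counted for more than 1 gene. Hoxa10 has the tallest dark bar, at 14, and Hoxc12, Hoxd11 and Hoxd13 are among the genes with more peaks in replicate 1 than in replicate 2.

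Read across the clusters by number and counted at any annotated start, the accessible promoters were not gathered at one end. Among genes numbered up to 4, 6 of 11 were accessible, among those from 5 to 8, 6 of 11, and among those from 9 up, 8 of 16. The share over all protein-coding genes was 60.2%. Some of these calls rest on starts far from the coding sequence, and Hoxd3 and Hoxd4 were called by the same peaks. With only the start nearest to the coding sequence the counts were 4 of 11, 5 of 11 and 8 of 16. All 3 genes of group 10, Hoxa10, Hoxc10 and Hoxd10, were accessible. Of the other groups, group 4 had 3 of 4 accessible and groups 3, 5, 6 and 11 had 2 of 3 each. At the start nearest to the coding sequence group 4 had 2 of 4 and groups 3 and 6 had 1 of 3 each. Group 13 had 1 of 4 (Hoxc13), and groups 2 and 12 had 0 of 2 each. All 10 Hoxb genes lacked the call, whatever their number.

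Sequences of the best ranked shared peaks that overlap no annotated UTR are shown for Hoxa and Hoxd, read from the mm10 reference on the plus strand. In the Hoxa4 peak (chr6:52191861-52192060) the capitals mark a run of 14 bases that is identical in the promoter peak of Hoxa6 and contains CCAAT, the CCAAT box bound by the factor NF-Y. In the Hoxd10 peak (chr2:74691701-74691920) they mark ATTGG, which is CCAAT read on the other strand.
Hoxa4: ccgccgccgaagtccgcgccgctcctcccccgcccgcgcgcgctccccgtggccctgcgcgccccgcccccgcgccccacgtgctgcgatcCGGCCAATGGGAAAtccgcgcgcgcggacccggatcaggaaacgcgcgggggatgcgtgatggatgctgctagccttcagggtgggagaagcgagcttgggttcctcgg
Hoxd10: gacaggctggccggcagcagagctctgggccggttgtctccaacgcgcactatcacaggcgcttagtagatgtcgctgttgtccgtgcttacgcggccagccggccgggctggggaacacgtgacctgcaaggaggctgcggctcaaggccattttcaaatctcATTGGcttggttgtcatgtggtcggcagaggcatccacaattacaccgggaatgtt

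The run of Hoxa4 and Hoxa6 was sought among windows of 300 bp on the strongest promoter peaks of 18 accessible genes. Among 144 pairs of genes with different numbers the longest identical run had a median of 9 bases, and the 14 bases of Hoxa4 and Hoxa6 were the maximum. Among 8 pairs of paralogues the median was also 9 and the maximum was 11, at Hoxa9 and Hoxd9. The sets differ greatly in size, and Hoxd3 and Hoxd4 share the same window, which enters both sets. Whether paralogues share longer runs than other pairs can therefore not be read from these values. Footprints, short stretches inside an accessible site where cuts are depleted, overlapped the run of 14 bases in both libraries at both genes.

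The shared Hox peaks had a lower median signal than shared peaks at large, and more of them lay near a start. The 97 shared peaks of the 4 spans had a median signal of 0.738 in replicate 1 and 0.908 in replicate 2, against 0.937 and 1.70 for all shared peaks. Of the 97, 58 (59.8%) lay within 1 kb of an annotated start of any gene, against 44.4% of all shared peaks, and their median GC content was 57.2% in both sets. The median width was 280 bp against 260 bp. The lower signals were mostly in Hoxa, where the medians were 0.439 and 0.555, while the medians in Hoxc (1.18 and 2.26) and Hoxd (1.101 and 2.26) lay above those of all shared peaks.

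Short motifs were sought on both strands in the shared peaks. TAATTA, the core site of many homeodomain proteins, was in 5 of 97 Hox peaks (5.15%) and in 1.59% of all shared peaks. TGATTNAT, a site of PBX with a HOX partner, was in 2 (2.06% against 1.74%), and CTCGTAAA, a site of high-numbered HOX proteins, in 1 (1.03% against 0.142%). CAGCTG, the E-box of the muscle regulators MYOD and MYOG, was in 12 (12.4% against 28.9%). In windows of 150 bp centred on the peaks it was in 5.15% of the Hox peaks and 19.2% of all shared peaks. TGACAG, the site of MEIS, was in 8 (8.25% against 20.6%), and GGGGCGGGG, an SP/KLF site, in 3 (3.09% against 9.44%). The CCAAT box, added after the sequences had been seen, was in 40 (41.2% against 29.9%). The retinoic acid response element had no match (0.134% of all shared peaks). Motifs can overlap each other, and a match of letters is no measure of binding.

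The insulator factor CTCF divides Hox clusters into domains in many cell types. Its exact consensus had no match in the 97 Hox peaks and was in 2.73% of all shared peaks. With 1 mismatch allowed, a setting chosen after that result, 10 of 97 Hox peaks (10.3%) and 10.6% of all shared peaks had a match. A footprint overlapped 3 of the 10 in each library, against 49.1% of the matches in all shared peaks in replicate 1 and 54.0% in replicate 2. Of the 10 sites, 2 were overlapped by a footprint in both libraries, 1 beside a start of Hoxa7 at chr6:52221803-52221826 and 1 beside a start of Hoxa10 at chr6:52240535-52240558. They are shown on the strand of the match with 6 bases on each side, and capitals mark the match.
Hoxa7: aaaattCCAGGAGATGGCagtgtg
Hoxa10: cagccgCCACGAGATGGCgcactc

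Footprints, like peaks, were densest in Hoxa. The Hoxa span held 201 in replicate 1 and 217 in replicate 2, or 14.5 and 15.7 per 10 kb, against 0.578 and 1.28 for the genome. Hoxb held 0 and 12, Hoxc 31 and 146, and Hoxd 65 and 56. Hoxa and Hoxd had similar numbers in both libraries, although replicate 2 had more footprints in all (338761 against 153010). Most did not lie at the same places. In Hoxa 31.3% of the footprints of replicate 1 and 29.5% of those of replicate 2 overlapped a footprint of the other library. The shares were 26.2% and 26.8% in Hoxd and 38.7% and 9.59% in Hoxc. In Hoxc replicate 2 had the larger number, and 43 of its 146 lay between Hoxc10 and Hoxc11, where replicate 1 had 5.

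Noncoding genes are threaded through the clusters, and several share promoters with the Hox genes. In the Hoxa span 11 of 25 other genes (Evx1 included) were accessible in both libraries, among them Hoxaas3, Hoxa11os and Mir196b. Several of the 11 were called by a peak that also calls a Hox gene, as Hoxa11os was by the peaks of Hoxa11. The share over all noncoding genes was not computed. In Hoxb 1 of 10 was, Gm53, by a different peak in each library. In Hoxc 1 of 7 was, Mir615, and in Hoxd 3 of 11 (Evx2 included) were, Haglr, Hoxd3os1 and Gm28793, which start 84 to 141 bp from starts of Hoxd1, Hoxd4 and Hoxd9. Hottip, a transcript from beyond Hoxa13, and Hotair, from between Hoxc11 and Hoxc12, had no promoter peak in either library. Evx1 and Evx2, homeobox genes next to Hoxa13 and Hoxd13, had none either.

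The clusters also encode microRNAs of a few families that are known to target Hox transcripts. Their mature sequences from RefSeq (build GRCm38.p6) are shown, with the seed in capitals. The miR-196a-5p sequence is that of both Mir196a-1 and Mir196a-2, so it does not set these copies apart.
mmu-miR-196b-5p: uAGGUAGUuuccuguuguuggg
mmu-miR-196a-5p: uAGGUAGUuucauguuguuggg
mmu-miR-10a-5p: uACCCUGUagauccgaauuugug
mmu-miR-10b-5p: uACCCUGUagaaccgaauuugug
mmu-miR-615-3p: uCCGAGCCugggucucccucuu

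The miR-196 copies share the seed AGGUAGU and the miR-10 copies the seed ACCCUGU. Of the miR-196 genes, Mir196b between Hoxa9 and Hoxa10 had peaks within 1 kb of its start in both libraries, with signals of 0.972 and 1.56. Mir196a-2 next to Hoxc9 and Hoxc10 had a peak in replicate 2 only (0.168), and Mir196a-1 in Hoxb had none. Mir10a, 1102 bp from the start of Hoxb4, and Mir10b, 1004 bp from a start of Hoxd4, had none. Mir615, within Hoxc5, had 1.03 and 1.37.

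The partners of HOX proteins and the regulators of the clusters were nearly all accessible. The cofactors that bind DNA together with HOX proteins (Pbx2, Pbx3, Pbx4, Meis1, Meis2, Meis3, Pknox1 and Pknox2) were accessible in both libraries at 8 of 8 genes, with signals from 0.656 to 6.95 in replicate 1 and from 0.807 to 16.5 in replicate 2. Polycomb genes, which keep Hox genes silent, did so at 18 of 18, with Ezh2 the strongest (10.96 and 46.1). Trithorax and demethylase genes, which act the other way, reached 6 of 6, and cohesin and CTCF genes 6 of 6. Of the genes that switch Hox clusters on in the embryo 3 of 7 were accessible, the retinoic acid receptors Rara, Rarb and Rarg. Cdx1 had no promoter peak, and Cdx2, Cdx4 and Gdf11 had one in replicate 2 only (0.269, 0.280 and 2.65). In all 41 of 45 genes were accessible in both libraries, against 60.2% of all genes and 91.8% of genes with CpG-rich promoters. How many of the 45 have CpG-rich promoters was not counted.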

How the data were processed

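DNase-seq peaks, footprints and segments of 2 libraries of 1 group were used. Positions are on mm10, per the labels, and the aligner and peak caller were not given in the sources used here. Peaks were called by the authors for each library on its own and carry a signal value in the deposited lists, which is never negative and used only within a library. The deposited footprint and segment files hold p-value columns, read as false discovery rates, and the footprint column held 0.01 in every row. The longer peak list of each library was the main list. Promoters were 1 kb either side of any GENCODE M21 start, spans were the genes plus 20 kb either side, and peaks were placed by midpoint. The rule named all 38 genes, the 3 best ranked shared peaks per cluster by mean rank, and neighbours or regulators by their calls. Members and lists were chosen with earlier results of these data known. Depth is unknown, so no interval is given. A gene of the cofactor list and a peak sequence are not reported here. Functions were tested on simulated data, and overlaps were checked with bedtools 2.31.1. Python 3.11.15, numpy 2.4.6 and pandas 2.3.3 were used. Alternatives covered the peak list, peak number, overlap, promoter width, flanks, starts and single libraries.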

Additional observations from a re-analysis of the deposited data

How the results depend on the processing

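No paired analysis was possible because there is only 1 group. Promoter calls ranged from 17 to 21 of 38 over all settings that use both libraries, and single libraries gave 23 and 29. The shares over all protein-coding genes were 60.2% in the main setting and 60.8% and 71.1% in single libraries. For the other settings they were not computed. With the shorter list the number of Hox promoters was 17, with the strongest 33492 peaks of each library 18, and with the start nearest to the coding sequence, a setting added after the data were seen, 17. Over these settings and with promoters of 500 bp or 2 kb no Hoxb promoter was accessible in both libraries. By cluster, settings with both libraries gave 7 or 8 promoters in Hoxa, 3 to 6 in Hoxc and 4 to 7 in Hoxd. The 3 in Hoxc came with the shorter list. The 4 in Hoxd came with the start nearest to the coding sequence. In each setting tried Hoxa had more shared peaks than any other cluster.

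Shared peaks in Hoxa fell to 18 with the strongest peaks only, 33 with equal numbers (66984) and 48 with 50% reciprocal overlap. In Hoxc and in Hoxd they fell to 5 with the shorter list. With flanks of 50 kb Hoxb had 2. Without one library, where all peaks of the other count, the numbers were 103 to 143 in Hoxa, 1 to 12 in Hoxb, 31 to 69 in Hoxc and 25 to 40 in Hoxd. The longest stretch without a shared peak in Hoxc was 62.8 kb with the shorter list, 54.1 kb with the strongest peaks, 42.3 kb with 50% overlap and 49.8 kb with flanks of 50 kb, which gave 46.0 kb in Hoxa. Without one library these stretches were 15.7 to 31.6 kb in Hoxa, 65.4 to 137 kb in Hoxb, 21.3 to 22.2 kb in Hoxc and 18.7 to 47.0 kb in Hoxd. The median of shared peaks per gene was 5.5 without replicate 1 and 2 without replicate 2. Footprints inside shared peaks only, as the mean of the libraries, were 0 in Hoxb, 34.5 in Hoxc and 29 in Hoxd. Single libraries gave 0 to 12 footprints in Hoxb and 31 to 146 in Hoxc. CAGCTG was in 5.15% of windows of 150 bp centred on the peaks. The causes were not tested. The unknown depth limits every absence of a peak.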

Other observations

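Shared peaks were also counted beyond the 20 kb flanks, against a density of 0.186 per 10 kb over the genome. From 20 to 250 kb below Hoxa there were 4 shared peaks (0.174 per 10 kb) and from 20 to 250 kb above it 9 (0.391 per 10 kb). Hoxb, with 0 inside, had 3 (0.130 per 10 kb) on its low-numbered side, where Skap1 lies, and 5 (0.217 per 10 kb) on its high-numbered side. Hoxd had 7 (0.304 per 10 kb) on the side of Mtx2 and 6 (0.261 per 10 kb) on the side of Lnpk. Hoxc had 26 (1.13 per 10 kb) on its low-numbered side, among the genes Smug1, Cbx5, Hnrnpa1, Nfe2 and Copz1, and 11 (0.478 per 10 kb) on the side of Calcoco1. The low-numbered side of Hoxc was thus denser than the Hoxc span itself, with its 0.770 per 10 kb.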
